A study of Homo sapiens with 8 samples.

Results

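The genes described here are those of the cell-surface start of blood coagulation and of plasminogen activation, chosen by symbol, by a rule that uses no measured value. The choice was nevertheless made with earlier results of these data known. The genes comprise tissue factor (F3), the tissue factor pathway inhibitors TFPI and TFPI2, thrombomodulin (THBD), the protease-activated receptors F2R and F2RL1, urokinase (PLAU), the urokinase receptor (PLAUR) and tissue plasminogen activator (PLAT). All 9 genes were found, each in 1 row, among 29004 loci of the deposited gene table, of which 26863 carried a gene name. RNA sequencing had been performed on 8 samples of 1 stable line made from AB8/13 cells, immortalized human podocytes, with a lentiviral, doxycycline-inducible construct for wild-type LATS2, a kinase of the Hippo pathway that phosphorylates the coactivator YAP. In the 4 LATS2 OE samples the construct was induced for 8 h by 125 ng/mL doxycycline, and the 4 untreated samples of the same line received no doxycycline. The comparison asks which transcripts change early after Hippo pathway activation. Since doxycycline was given to the whole LATS2 OE group and to none of the untreated samples, effects of the drug and of the kinase cannot be told apart.

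Tissue factor is the transmembrane receptor of coagulation factor VII, and the complex of both starts the clotting cascade, which ends in thrombin. TFPI blocks this complex, while the related TFPI2 mainly inhibits plasmin and other proteases of the pericellular space. Thrombin signals to cells by cutting protease-activated receptors, and thrombomodulin turns thrombin towards the activation of protein C, which dampens clotting. Urokinase, bound to its receptor, and tissue plasminogen activator convert plasminogen into plasmin, which dissolves fibrin and cleaves matrix proteins. In the glomerulus, the urokinase receptor has been studied for its role in podocyte motility, and tissue factor is commonly listed among the target genes of YAP and TAZ.

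The authors deposited 1 pooled FPKM value per group (read abundance normalised to transcript length and library size). No SD and no test over samples can therefore be given, and no difference could be set against the spread between replicates. Whether a group's 4 samples were separate cultures is not stated. The methods give 1 overall read number for the sequencing and the table no counts, so the depth behind each value is unknown here. In addition, the decimal point had been lost from most cells of at least 1 FPKM. The ratio of the groups was read as the power of 10 nearest to no change. Where the point was lost in both groups, this cannot return a change above 3.16-fold, the square root of 10. Of 2933 loci whose higher value was intact at 0.3 to 1 FPKM and whose lower value was not bounded, 56 exceeded this limit, 15 of them listed at 0 in 1 group. Whether a given gene of higher level exceeded it cannot be told from its digits. Size and direction of the ratios of F3, TFPI, TFPI2, F2R, F2RL1, PLAU, PLAUR and PLAT therefore rest on this reading, and only the values of THBD were intact in both groups. The next nearest ratio that the digits allow ran the other way for each of the 8, by 3.96-fold for F3 and by 6.91- to 9.93-fold for the others. For LATS2 itself, on chromosome 13 of hg19 from 21547173 to 21635722, the digits allowed ratios of 0.0201, 0.201, 2.01, 20.1 and 201 between LATS2 OE and untreated cells. The FPKM cells thus gave no usable check of its induction, which the paper reports as the largest rise in mRNA. Of the podocyte markers, SYNPO, PODXL, CD2AP and ACTN4 had at least 1 FPKM. NPHS1 (nephrin), PTPRO and WT1 lay below 1 FPKM in both groups, with WT1 at 0.412 FPKM in LATS2 OE and 0.413 FPKM in untreated cells. All 6 endothelial and all 4 platelet markers lay below 1 FPKM, whereas 1 of 4 mesangial (PDGFRB), 1 of 4 tubular (AQP1) and 1 of 4 leukocyte markers (CD68) reached this level.

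With each ratio read nearest to no change, the largest difference among the 9 genes was a lower level of F3 after LATS2 induction, while TFPI, the direct inhibitor of tissue factor, was nearly equal in both groups. THBD was also lower but scarce. TFPI2 and PLAU were moderately higher, and the receptors F2R and F2RL1 were slightly lower. Of the 9 genes, 8 had at least 1 FPKM in 1 or both groups. Of these 8, 1 was at least 1.5-fold lower (F3) and 0 were at least 1.5-fold higher, beside 1.91% and 1.54% of 12174 named loci of the same level. In either direction 3.44% of these loci passed this fold. With a looser threshold, a ratio of at least 5 to 4 either way, 1 of the 8 genes was lower and 2 were higher (TFPI2 and PLAU), beside 4.98% and 4.82% of the loci. The median log2 ratio of all 9 genes was 0.01, and that of the 12174 loci was -0.0034, with quartiles of -0.07 and 0.07.

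**Figure D1:**
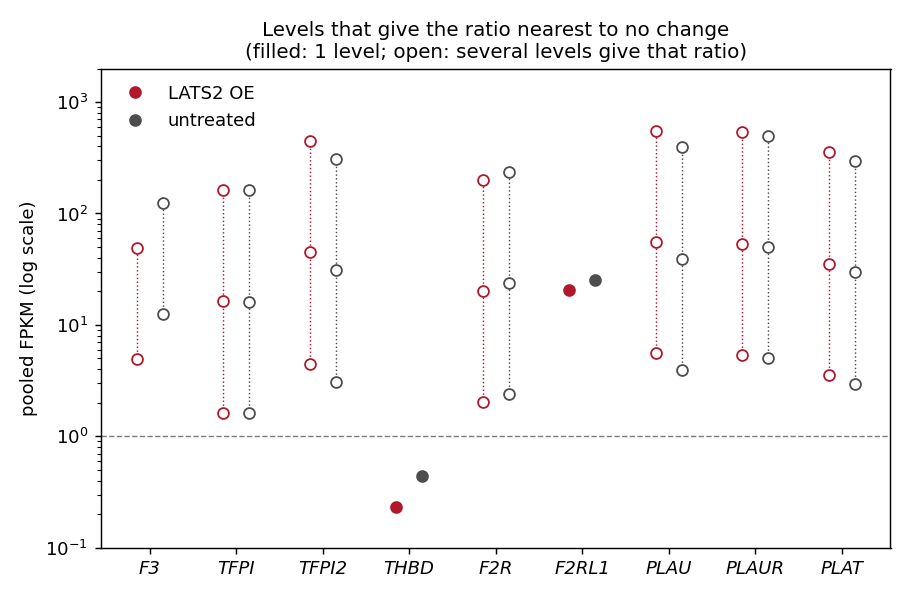
Pooled FPKM of the 9 genes (log axis) in LATS2 OE (red) and untreated cells (grey), with no replicate values available. Each pair is placed to give the ratio nearest to no change. Filled points have 1 level that does so, and open points joined by dotted lines show every such level. THBD, intact in both groups, stood at 0.231 and 0.436 FPKM in LATS2 OE and untreated cells. F2RL1 was placed at 20.5 and 25.4 FPKM in these groups, and only its untreated value was intact. The other 7 genes had 2 or 3 pairs of levels that give the ratio nearest to no change.

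F3 had 4.93 FPKM in LATS2 OE cells against 12.5 FPKM in untreated cells, or 49.3 FPKM against 125 FPKM, the 2 pairs of levels that give the ratio nearest to no change. Read so, the LATS2 OE level was 2.53-fold lower, a log2 ratio of -1.34. The digits also allow 49.3 FPKM in LATS2 OE against 12.5 FPKM in untreated cells, 3.96-fold higher, or 4.93 FPKM against 125 FPKM, 25.3-fold lower. As read, 25 of the 12174 loci had a lower ratio. This count can miss loci that fell by more than 3.16-fold if their point was lost in both groups. The hg19 locus, chr1:94994732-95007413 (minus strand), is annotated with the protein-coding gene F3 and no other gene. The promoter of F3 is shown because this gene differed most and because it holds a pair of AP-1 letters close together. AP-1 is the dimeric factor of FOS and JUN proteins, and TEAD factors are the DNA-binding partners of YAP. RefSeq promoter windows (GRCh38.p14, from 250 bases before to 50 bases after the annotated start) were at hand for 6 of the 9 genes, with PLAU in 2 windows, and were searched on both strands for the AP-1 letters TGANTCA and the TEAD letters GGAATG, which do not overlap each other in these windows. The 250 bases before the start of F3 lie at chr1:94541760-94542009 (GRCh38.p14, minus strand) and are printed 5′ to 3′ on the gene's strand, with the matches in capitals.

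F3: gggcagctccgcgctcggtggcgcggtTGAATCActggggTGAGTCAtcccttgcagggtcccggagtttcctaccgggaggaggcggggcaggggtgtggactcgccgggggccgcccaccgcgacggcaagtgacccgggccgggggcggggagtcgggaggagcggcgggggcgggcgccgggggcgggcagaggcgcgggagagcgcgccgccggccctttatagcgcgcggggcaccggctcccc

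The AP-1 letters of F3 begin 223 and 210 bases before the start. Of all 35116 RefSeq windows of this length, 7.71% held at least 1 AP-1 match and 0.515% held 2 or more. The F3 window held no TEAD match, which says only that these letters are not in this window.

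TFPI, which encodes the Kunitz-type inhibitor of the tissue factor complex, had 1.62 FPKM in LATS2 OE cells and 1.61 FPKM in untreated cells, or 10 or 100 times these values. Its log2 ratio was 0.01. With both genes read nearest to no change, the level of F3 relative to TFPI was 2.54-fold lower in LATS2 OE than in untreated cells. This value turns if either gene alone took its next nearest allowed ratio, 3.96-fold higher for F3 or 9.93-fold lower for TFPI. The TFPI locus spans chromosome 2 from 188328857 to 188419517 on the minus strand. It lies wholly within the annotated noncoding gene CALCRL-AS1 of the opposite strand, and the library kit, as named in the methods, does not mark strand, so reads of both cannot be told apart. What part of the TFPI value they make up was not tested. The TFPI promoter window held neither set of letters.

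TFPI2 had 4.47 FPKM in LATS2 OE cells and 3.08 FPKM in untreated cells, or 10 or 100 times these values. It was 1.45-fold higher after LATS2 induction, a log2 ratio of 0.53, the highest of the 9 genes, and 1.78% of the 12174 loci had a higher ratio. As read, TFPI2 was thus higher in LATS2 OE cells, by less than 1.5-fold, and TFPI nearly equal. The next nearest ratios that the digits allow are 6.91-fold lower for TFPI2 and 9.93-fold lower for TFPI. A difference between the 2 inhibitors is therefore not established. The locus on chromosome 7 from 93491973 to 93520392 is 28420 bp long, longer than the annotated gene of 5358 bp, and lies within the gene GNGT1 of the opposite strand, besides 168 bp shared with the noncoding TFPI2-DT. The part of their reads in the TFPI2 value was not tested. Its promoter, shown because it carries an AP-1 match as F3 does although its ratio had the other sign, lies at chr7:93890754-93891003 (250 bases, GRCh38.p14, minus strand).

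TFPI2: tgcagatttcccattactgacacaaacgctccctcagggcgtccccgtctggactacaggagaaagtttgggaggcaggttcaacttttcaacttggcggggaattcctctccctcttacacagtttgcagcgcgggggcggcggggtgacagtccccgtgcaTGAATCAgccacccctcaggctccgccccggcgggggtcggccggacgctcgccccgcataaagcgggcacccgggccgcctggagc

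This match, TGAATCA, begins 87 bases before the start and has the same letters as the first match of F3.

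**Figure D2:**
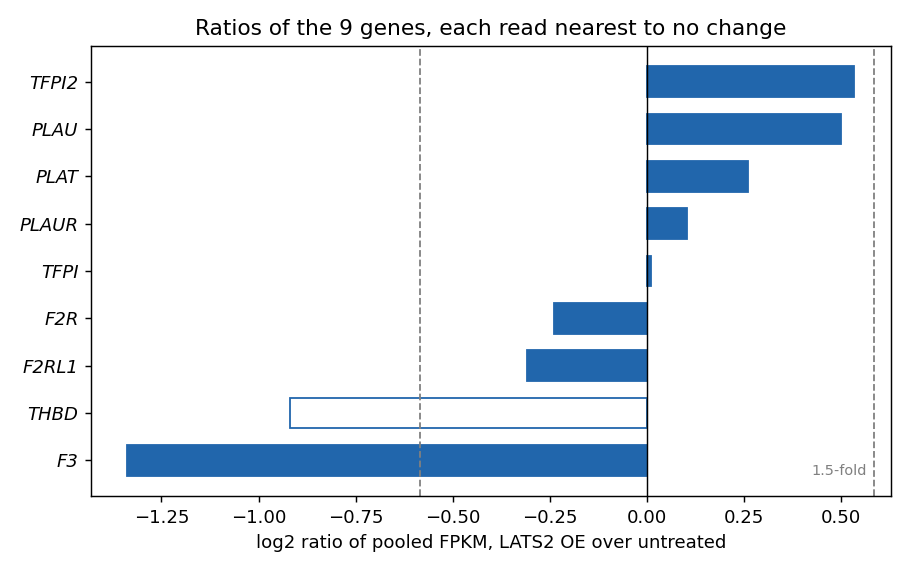
Log2 ratio of pooled FPKM, LATS2 OE over untreated, for each of the 9 genes, read nearest to no change, with dashed lines at 1.5-fold in either direction and no error bars, since the values are pooled. The open bar is THBD, below 1 FPKM in both groups. F3 (-1.34) and THBD (-0.92) lie beyond the lower line, and no gene passes the upper line, with TFPI2 (0.53) and PLAU (0.50) nearest to it.

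THBD was the only 1 of the 9 genes below 1 FPKM in both groups. Its values were intact, at 0.231 FPKM in LATS2 OE cells against 0.436 FPKM in untreated cells, which is 1.89-fold lower, a log2 ratio of -0.92. Among 2509 named loci with 0.1 to 1 FPKM in both groups, 4.34% were at least 1.5-fold lower, a larger share than the 1.91% above. That range was chosen after the values had been seen. Thrombomodulin is best known from endothelial cells, and the endothelial markers PECAM1, CDH5, KDR, TEK, VWF and EMCN had at most 0.0391 FPKM in LATS2 OE and 0.0385 FPKM in untreated cells. The locus lies within the annotated gene on the minus strand of chromosome 20, from 23026270 to 23030301, with no other annotated gene in it. PROCR, the endothelial protein C receptor, which presents protein C to the thrombin-thrombomodulin complex, had 1.88 FPKM in LATS2 OE and 1.87 FPKM in untreated cells, or 10 times these values, a log2 ratio of 0.0086. In contrast to THBD, this partner was nearly equal in both groups as read.

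The receptors F2R and F2RL1 were both slightly lower after LATS2 induction and neither reached the ratio of 5 to 4. F2R encodes protease-activated receptor 1, the main thrombin receptor of many cells, and had 2.01 FPKM in LATS2 OE and 2.38 FPKM in untreated cells, or 10 or 100 times these values. This is 1.18-fold lower, a log2 ratio of -0.24. F2RL1 encodes protease-activated receptor 2, which is cut by trypsin-like proteases and by the complex of tissue factor with factor VII rather than by thrombin. Its untreated cell was intact, and it had 20.5 FPKM in LATS2 OE and 25.4 FPKM in untreated cells, 1.24-fold lower as read, a log2 ratio of -0.31. With the point of the LATS2 OE cell 1 place further on, it would be 8.08-fold higher, and with the point 1 place back 12.4-fold lower. Of the 12174 loci, 5.32% had a lower ratio than F2RL1 and 7.36% a lower ratio than F2R. F2RL2, a further thrombin receptor that is not among the 9 genes, had 2.25 FPKM in LATS2 OE and 2.74 FPKM in untreated cells, or 10 or 100 times these values, a log2 ratio of -0.28. F2RL3, protease-activated receptor 4, was scarce, with 0.331 FPKM in LATS2 OE and 0.224 FPKM in untreated cells, a log2 ratio of 0.57. F2R, F2RL1 and F2RL2, each of at least 1 FPKM, were thus lower as read. Only F2RL3, below 1 FPKM in both groups, was higher.

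F2RL2, F2R and F2RL1 are neighbours on chromosome 5 of hg19. F2R spans 76011868 to 76031663 and F2RL1 spans 76114833 to 76131140, both on the plus strand, and share 173 and 570 bp with noncoding genes of the opposite strand. F2RL2 lies on the minus strand inside IQGAP2, whose own row in the table had 0.0254 FPKM in LATS2 OE and 0.0292 FPKM in untreated cells. AGGF1, the next named gene of at least 1 FPKM downstream of F2RL1, had a log2 ratio of -0.0051. The promoter of F2RL1 is shown as the only window of the 6 genes with TEAD letters, which 4928 of all 35116 windows held. It lies at chr5:76818780-76819029 (250 bases, GRCh38.p14, plus strand), and the match begins 194 bases before the start, as CATTCC on the gene's strand.

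F2RL1: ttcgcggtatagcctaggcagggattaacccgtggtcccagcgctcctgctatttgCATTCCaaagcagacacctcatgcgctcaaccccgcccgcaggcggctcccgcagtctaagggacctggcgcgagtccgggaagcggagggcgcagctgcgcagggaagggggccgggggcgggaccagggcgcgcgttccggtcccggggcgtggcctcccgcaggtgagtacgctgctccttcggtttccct

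Of the plasminogen activation genes, PLAU was moderately higher, PLAT slightly higher and PLAUR nearly equal. PLAU, the secreted protease urokinase, had 5.55 FPKM in LATS2 OE cells and 3.93 FPKM in untreated cells, or 10 or 100 times these values, 1.41-fold higher, a log2 ratio of 0.50. Of the 12174 loci, 2.09% had a higher ratio. The PLAU locus, on the plus strand of chromosome 10 from 75669727 to 75682535, has the same bounds as the noncoding gene C10orf55 of the opposite strand. The row of C10orf55 had 0.608 FPKM in LATS2 OE and 0.306 FPKM in untreated cells, a log2 ratio of 0.99, and without strand the reads of the 2 genes cannot be told apart where they overlap. Neither PLAU window held AP-1 or TEAD letters.

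PLAUR, the membrane-anchored receptor that holds urokinase at the cell surface, had 5.37 FPKM in LATS2 OE and 5.00 FPKM in untreated cells, or 10 or 100 times these values. It was 1.07-fold higher, a log2 ratio of 0.10, which is 0.40 less than that of PLAU, and 19.3% of the 12174 loci had a higher ratio. The locus is on the minus strand of chromosome 19 from 44150247 to 44174498. Its promoter is printed for comparison with F3, since it holds the AP-1 letters TGAGTCA of the second F3 match while the gene differed little between the groups. It lies at chr19:43670170-43670419 (250 bases, GRCh38.p14, minus strand), and the match begins 186 bases before the start.

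PLAUR: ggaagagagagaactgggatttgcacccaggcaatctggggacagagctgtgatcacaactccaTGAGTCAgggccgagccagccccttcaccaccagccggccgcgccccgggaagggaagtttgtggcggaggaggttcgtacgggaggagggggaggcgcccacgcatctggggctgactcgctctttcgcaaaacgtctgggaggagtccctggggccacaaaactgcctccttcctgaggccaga

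The 3 genes with AP-1 letters thus had log2 ratios of -1.34 (F3), 0.10 (PLAUR) and 0.53 (TFPI2). PLAT, the plasminogen activator that is best known for its action on fibrin, had 3.54 FPKM in LATS2 OE cells and 2.95 FPKM in untreated cells, or 10 or 100 times these values. This is 1.20-fold higher, a log2 ratio of 0.26, and 6.62% of the 12174 loci had a higher ratio. The locus lies on the minus strand of chromosome 8 from 42032236 to 42065194.

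A list of 48 other genes of coagulation and fibrinolysis held no gene of at least 1 FPKM that reached 1.5-fold in either direction, as read in the same way. Each of the 48 genes had a row. Of these, 8 were listed at 0 in 1 or both groups, 21 had values above 0 but below 1 FPKM in both groups, and 19 had at least 1 FPKM in 1 or both groups. Among these 19 genes, 11 had a log2 ratio above 0 and 8 one below 0, with a median of 0.02 and a range of -0.51 to 0.27. None of these 19 at 1.5-fold stands beside 3.44% of the 12174 loci, a share that comes to less than 1 gene in 19, so the count is no result about the list. At the ratio of 5 to 4, 2 of the 19 were lower and 0 were higher, beside 4.98% and 4.82% of the loci. The examples that follow were chosen after their values had been seen. VLDLR, an endocytic receptor that can take up protease-inhibitor complexes, had the lowest ratio of the 19, 1.42-fold lower, with 1.15 FPKM in LATS2 OE and 1.63 FPKM in untreated cells, or 10 or 100 times these values. FGB, the fibrinogen beta chain, was the other gene past this ratio, with 0.952 FPKM in LATS2 OE and 1.19 FPKM in untreated cells. LRP1, which clears complexes of plasminogen activators with their inhibitors, had 10.9 FPKM in LATS2 OE and 9.33 FPKM in untreated cells, a log2 ratio of 0.22. ANXA2, a cell-surface receptor of plasminogen and tissue plasminogen activator, was abundant in both groups, at 1285 FPKM in LATS2 OE and 1358 FPKM in untreated cells, a log2 ratio of -0.08. The highest ratio of the 19, 0.27, was that of SPINT1, a membrane inhibitor of serine proteases.

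Transcripts of several soluble proteins on which this system acts, made chiefly by the liver, were scarce in these cells. F2 (prothrombin) had 0.0471 FPKM in LATS2 OE and 0.0439 FPKM in untreated cells, F7 (factor VII) had 0.0292 FPKM in LATS2 OE and 0.0346 FPKM in untreated cells, and PLG (plasminogen) had 0.00658 FPKM in LATS2 OE and 0.00649 FPKM in untreated cells. F10 (factor X), with 0.245 FPKM in LATS2 OE and 0.250 FPKM in untreated cells, was likewise below 1 FPKM. Of the clotting factors, F12 (factor XII) and F8 (factor VIII) did reach 1 FPKM, with log2 ratios of 0.09 and 0.06. The fibrinogen chain gene FGB did so in untreated cells only.

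**Figure D3:**
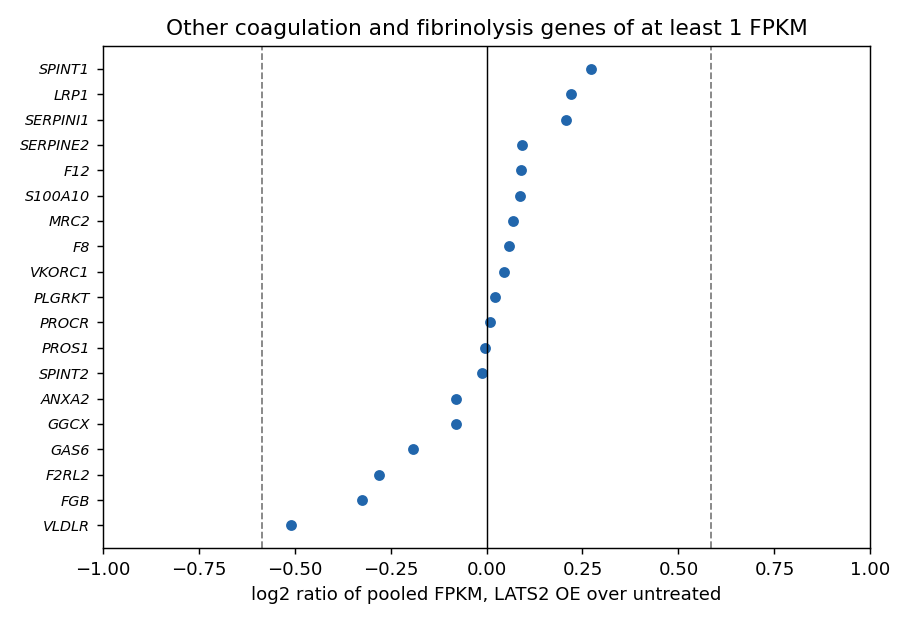
Log2 ratio of pooled FPKM, LATS2 OE over untreated, for the 19 of 48 other coagulation and fibrinolysis genes with at least 1 FPKM in 1 or both groups, 1 point per gene and no error bars. Dashed lines mark 1.5-fold. All points lie between -0.51 (VLDLR) and 0.27 (SPINT1), inside the lines.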

How the data were processed

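RNA from 4 LATS2 OE and 4 untreated samples of 1 AB8/13 podocyte line was sequenced as poly(A) libraries with single reads. Per the methods and the submitters' processing notes, the authors demultiplexed with bcl2fastq, checked reads with FastQC, trimmed with Trimmomatic (version 0.33), aligned reads to hg19 by TopHat and compared groups by Cufflinks. No source used here gives the versions of these last tools or the annotation. The deposited table holds FPKM values that the authors pooled, 1 per group. Its columns of the authors' comparison (log2 fold change, test statistic, p-value, q-value and a significance mark) were not used.

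Of 24849 FPKM cells of at least 1 in the deposited table, 98.2% had 3 decimals, the layout in which the decimal point is lost. Cells below 1 and those with at most 2 decimals, among them all 166 cells of at least 1000, were taken as intact, so a lost point allows up to 3 levels. The ratio was read from the FPKM cells alone, as the power of 10 nearest to 1, and no pseudocount was added. A locus that changed by more than 3.16-fold is misread in size or direction if its point was lost in both groups. This also touches the shares of loci past a fold. The reading gave back simulated ratios drawn within that limit, which does not test whether a deposited ratio lies within it. Where several levels were possible, the lowest is given first.

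With 1 value per group the planned test across samples could not be fitted, and at least 1.5-fold served as threshold among named loci of at least 1 FPKM in 1 or both groups. Named genes are the 9 genes, LATS2 and list genes past that fold. Other genes given are examples picked with their values in view. The 9 genes and lists were chosen with earlier results of these data known. Some podocyte markers of the list are not reported here. Loci starts were counted from 1, and GENCODE v44lift37 on GRCh37 gave the annotation. Promoter sequences are from RefSeq (GRCh38.p14), whose coordinates are not comparable with hg19. Other fold thresholds, filters, pseudocounts and the cells as deposited were tried as alternatives. Python (version 3.11.15) and matplotlib (version 3.10.9) were used.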

Additional observations from a re-analysis of the deposited data

How the results depend on the processing

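Leaving out replicates was not possible because the values are pooled. No paired analysis was possible because the deposited table holds 1 pooled value per group. The precision of every ratio is unknown, and the depth behind a value too. F3 had log2 ratios of -1.32 and -1.18 at pseudocounts of 0.1 and 1 FPKM, added to its lowest pair of levels. At its higher pair of levels a pseudocount would move the ratio less. Of 27 ratios of the 9 genes under the planned settings, which keep the place of the point or leave cells as deposited, 26 kept their direction. Only the cells as deposited could have changed a direction, since a pseudocount added to both groups cannot. The count is therefore no support for the directions. The exception was F2RL1, whose cells as deposited, with the lost point of 1 group left as it is, gave a log2 ratio of 3.01. At the next nearest place of the point, an alternative chosen after seeing the data, the log2 ratio turned for all 8 genes it could be given for, to 1.98 for F3, -3.31 for TFPI, -2.79 for TFPI2, 3.08 for F2R, 3.01 for F2RL1, -2.82 for PLAU, -3.22 for PLAUR and -3.06 for PLAT. The number of genes past the fold, 1 of 8, was 3 at a ratio of 5 to 4, 2 with every locus above 0 (THBD added) and 2 with cells as deposited (F2RL1 added). For the list of 48 genes the count of 0 was 2, 7 and 2 under these settings. The share of all named loci past the fold, 3.44%, was 9.80% at a ratio of 5 to 4, 1.00% at 2-fold, 13.7% with every locus above 0, 1.77% with a pseudocount of 1 FPKM and 22.3% with cells as deposited. The share with a pseudocount also depends on which level is taken where several are possible. THBD had a log2 ratio of -0.70 at a pseudocount of 0.1 FPKM and of -0.22 at 1 FPKM.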
